A study of Mus musculus with 6 samples.

Results

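The genes described here encode the subunits of the mitochondrial respiratory chain and of ATP synthase, and they were chosen by their symbols in the count table: the Nduf subunit genes of complex I, Sdha to Sdhd of complex II, the Uqcr genes of complex III, the Cox4 to Cox8 genes of complex IV, the Atp5 genes of complex V, and the mRNAs encoded by the mitochondrial genome. The rule found 110 of the 56884 genes in the table. They comprise 13 mitochondrially encoded mRNAs, 76 nuclear subunits that most tissues express, 3 muscle isoforms (Cox6a2, Cox7a1 and Cox8b), 2 hypoxia-linked isoforms (Cox4i2 and Ndufa4l2), 3 testis isoforms (Cox6b2, Cox7b2 and Cox8c), 12 genes annotated as pseudogenes or non-coding RNA, and a second identifier of Atp5o with 0 counts in every lesion. Without the pseudogenes and the second identifier, the nuclear genes number 35 in complex I, 4 in complex II, 8 in complex III, 20 in complex IV with its isoforms, and 17 in complex V. The isoforms Ndufa4 and Ndufa4l2 were placed in complex IV, where the Ndufa4 protein works despite its name.

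The samples were ectopic lesions of a mouse model of endometriosis, in which uterine tissue of a donor grows in the peritoneal cavity of a recipient. Uteri of Dnmt3a f/f females gave the control lesions, which the labels call WT (n = 3) although both groups carry the floxed alleles, and uteri of Dnmt3a f/f:PR Cre/+ females gave the Dnmt3a KO lesions (n = 3). Cre acts in cells with progesterone receptor (PR), so deletion is limited to those cells of the graft, and all host cells in a lesion keep Dnmt3a. Donors were 8 weeks old and recipients were wild-type females with an estrogen pellet. The labels give 4 weeks as the time of collection and describe injected fragments, whereas the study's methods give an earlier day and a fragment sutured to the mesenteric membrane.

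The respiratory chain moves electrons from NADH (complex I) and succinate (complex II) through complex III to oxygen at complex IV, and ATP synthase (complex V) uses the resulting proton gradient. Its subunits come from both genomes, since the mitochondrial DNA encodes a core of complexes I, III, IV and V, whereas complex II is encoded in the nucleus alone. Some complex IV subunits exist as isoforms, of which Cox6a2, Cox7a1 and Cox8b serve heart and skeletal muscle, and Cox7a1 and Cox8b also serve brown fat.

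Each lesion gave 1 library, with 45370342 to 57239184 counts. Dnmt3a, the targeted gene, had 52.7, 43.9 and 51.7 CPM (counts scaled by TMM to a common library size) in WT replicates 1, 2 and 3, whereas the KO replicates had 30.3, 33.5 and 36.2 CPM. Every WT lesion was above every KO lesion, and the log2 fold change of -0.57 (SE 0.14) had an adjusted p of 0.321 (edgeR quasi-likelihood, Benjamini-Hochberg over the 18177 genes tested). WT replicates 1 and 3 stood apart from the other lesions in 15 markers of skeletal muscle fibres, whose summed level was 39654 and 41143 CPM there, 9.84 CPM in WT replicate 2 and 14.4 to 22.0 CPM in the KO lesions. The fast myosins Myh1 and Myh4 had 0 counts in every KO lesion. WT replicate 2 stood apart in the sum of 10 markers of neutrophils, with 9847 CPM against 219 to 481 CPM in the other WT lesions and 31.6 to 177 CPM in the KO lesions. Most of the sum in WT replicate 2 came from S100a8 and S100a9, at 3406 and 5263 CPM. Mpo, of the same list, had 1.35 CPM there against 1.15 and 1.09 CPM in WT replicates 1 and 3. Endometrial epithelium markers summed to 11437 to 20690 CPM in WT against 17152 to 36492 CPM in KO. Most of each sum came from Ltf, at 9883 to 19058 CPM in WT against 15673 to 33570 CPM in KO. Epcam, of the same list, had 240 to 412 CPM in WT against 211 to 468 CPM in KO. Foxa2, also on it, had at most 2.62 CPM in any lesion and 0 in KO replicate 3. WT replicate 2 also had the highest sum of 9 macrophage markers, 6287 CPM against 1461 to 3230 CPM in the other 5 lesions, and 4419 CPM of adipocyte markers, which ranged from 919 to 6505 CPM in the others. WT replicate 3 stood apart in 6 markers of pancreatic acinar cells, with 3444 CPM against 6.99 to 16.0 CPM elsewhere. The lesions are bulk tissue, so fewer cells of a type and less RNA per cell cannot be told apart.

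The promoters of 4 complex IV genes are printed because the muscle isoforms and their widely expressed partners, which swap in the same place of the enzyme, are compared in detail. Each is the 250 bases before the gene's start in RefSeq on GRCm38.p6, 5′ to 3′ on the gene's strand, with every CpG, the dinucleotide that Dnmt3a methylates, in capitals. The muscle isoforms come first.
Cox8b (chr7:140900447-140900696, minus strand): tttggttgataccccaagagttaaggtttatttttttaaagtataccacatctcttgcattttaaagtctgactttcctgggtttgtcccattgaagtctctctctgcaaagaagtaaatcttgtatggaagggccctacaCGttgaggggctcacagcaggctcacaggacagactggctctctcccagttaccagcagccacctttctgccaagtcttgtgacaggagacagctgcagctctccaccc
Cox7a1 (chr7:30183921-30184170, plus strand): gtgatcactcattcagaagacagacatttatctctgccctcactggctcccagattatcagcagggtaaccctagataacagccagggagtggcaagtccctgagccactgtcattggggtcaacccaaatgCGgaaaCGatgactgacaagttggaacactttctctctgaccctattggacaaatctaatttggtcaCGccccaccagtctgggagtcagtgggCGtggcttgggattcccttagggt
Cox8a (chr19:7217617-7217866, minus strand): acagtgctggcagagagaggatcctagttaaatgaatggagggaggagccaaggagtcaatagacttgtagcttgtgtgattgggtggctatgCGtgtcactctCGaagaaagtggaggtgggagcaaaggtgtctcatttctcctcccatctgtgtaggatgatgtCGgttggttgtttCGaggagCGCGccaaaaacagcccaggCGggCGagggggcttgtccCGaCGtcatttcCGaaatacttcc
Cox6a1 (chr5:115348959-115349208, minus strand): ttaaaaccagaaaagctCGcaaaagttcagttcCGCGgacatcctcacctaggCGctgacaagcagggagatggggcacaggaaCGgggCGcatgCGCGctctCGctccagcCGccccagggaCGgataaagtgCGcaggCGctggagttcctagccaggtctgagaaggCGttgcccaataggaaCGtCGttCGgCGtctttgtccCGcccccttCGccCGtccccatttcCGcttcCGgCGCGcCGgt
The window of Cox8b held 1 CpG and that of Cox7a1 held 4, against 11 for Cox8a, 26 for Cox6a1 and 14 for Cox7a2, the partner of Cox7a1. Over 32851 such windows of the genome the median was 6 CpG (quartiles 2 and 16), and over 67 windows of 62 of the widely expressed nuclear subunits it was 14 (quartiles 10.5 and 20). Methylation was not measured in these lesions. The letters GCGCATG, part of the site of the factor NRF1 that drives many respiratory chain genes, were found on either strand in 10 of the 67 windows (14.9%), those of Atp5g2, Atp5k, Atp5l, Cox5b, Cox6a1, Ndufa11, Ndufa6, Ndufa8, Ndufb6 and Sdhb, and in 3.24% of all windows. The letters CAGCTG, an E-box that myogenic factors can bind, were in 5 of the 67 windows (7.46%) and in 13% of all windows, and the Cox8b window held 1. Cox6a2 had no entry among the promoter windows used here.

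The muscle isoforms differed most between the groups. Cox6a2, a regulatory subunit of complex IV (ENSMUSG00000030785.9, chromosome 7), had 128, 0.720 and 93.3 CPM in WT replicates 1, 2 and 3 against 0.211, 0.159 and 0.292 CPM in the KO replicates in the same order. Cox7a1 (ENSMUSG00000074218.4, chromosome 7), whose product is linked to the dimer form of complex IV, had 28.6, 2.84 and 31.3 CPM in WT against 0.982, 1.11 and 1.00 CPM in KO. Cox8b (ENSMUSG00000025488.10, chromosome 7), the smallest of these subunits, had 74.4, 12.8 and 61.4 CPM in WT against 0.175, 0.199 and 1.29 CPM in KO. For all 3 genes, WT replicates 1 and 3 were far above the rest and WT replicate 2 was between them and the KO lesions, so the groups did not overlap.

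The log2 fold changes, KO over WT, were -8.38 (SE 1.89) for Cox6a2, -4.34 (SE 0.90) for Cox7a1 and -6.49 (SE 1.17) for Cox8b, each with an adjusted p of 0.321 by edgeR with Benjamini-Hochberg correction. Cox6a2 and Cox8b, with 8 to 14 and 10 to 62 counts in the KO lesions, passed the filter on low counts only through the WT lesions, so that a difference was bound to appear. Without WT replicates 1 and 3, the log2 fold changes were smaller, at -1.72 (unadjusted p = 0.0619 by edgeR) for Cox6a2, -1.48 (unadjusted p = 0.0225) for Cox7a1 and -4.53 (unadjusted p = 0.0258) for Cox8b. With DESeq2's Wald test their adjusted p-values were 1.36e-08, 9.59e-06 and 6.02e-09, and without WT replicate 2 edgeR gave 0.000973, 0.000973 and 0.0372 for Cox6a2, Cox7a1 and Cox8b. Their summed level was 144.6 ± 113.3 CPM in WT (SD, n = 3) against 1.81 ± 0.67 CPM in KO (SD, n = 3) (p = 0.1 by an exact two-sided permutation test, which is the smallest possible with 3 lesions a group).

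The order of the lesions followed the muscle markers in WT replicates 1 and 3 but not in WT replicate 2. There the summed muscle markers, at 9.84 CPM, were below all KO lesions, whereas the muscle isoforms, at 16.4 CPM in sum, were above all KO lesions. Cox8b made up 12.8 CPM of that sum. Ucp1, the uncoupling protein of brown fat, had 43.4 CPM in WT replicate 2 and at most 1.07 CPM in the other lesions. Cidea, another brown fat marker, had 18.2 CPM in WT replicate 2, 11.6 CPM in KO replicate 2 and 0.427 to 1.24 CPM elsewhere. The list of 7 brown adipocyte markers, which includes Cox8b itself, had a summed level of 372 to 694 CPM in WT against 396 to 651 CPM in KO, most of it from the deiodinase Dio2. Not all of the list was high in WT replicate 2. Dio2 had 336 CPM there against 288 to 633 CPM elsewhere. Ppargc1a was lowest there, at 1.94 CPM against 3.79 to 16.7 CPM elsewhere, and Zic1 was at 0. Elovl3 had 1.89 CPM there and at most 0.175 CPM elsewhere. The part of muscle fibres or brown adipocytes in the isoform levels was not tested.

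The partners of the muscle isoforms differed in the opposite direction or little. Cox8a, the widely expressed form of Cox8b (ENSMUSG00000035885.6, chromosome 19), had 83.5, 95.1 and 75.4 CPM in WT replicates 1, 2 and 3 against 134, 134 and 103 CPM in the KO replicates in the same order. Cox6a1, the partner of Cox6a2 (ENSMUSG00000041697.10, chromosome 5), had 88.2, 105 and 80.2 CPM in WT against 129, 119 and 116 CPM in KO. In both genes every KO lesion was above every WT lesion, and WT replicate 2 was the highest of the WT lesions. The log2 fold changes were 0.55 (SE 0.16, unadjusted p = 0.0148) for Cox8a and 0.41 (SE 0.14, unadjusted p = 0.0257) for Cox6a1, with adjusted p-values of 0.321 and 0.328 by edgeR with Benjamini-Hochberg correction. Both stayed above 0 with each lesion left out in turn, from 0.45 to 0.66 for Cox8a and from 0.31 to 0.53 for Cox6a1. Without WT replicates 1 and 3 they were 0.36 (unadjusted p = 0.188 by edgeR) and 0.19 (unadjusted p = 0.303). Cox7a2, the partner of Cox7a1, had 99.8, 75.9 and 94.7 CPM in WT against 105, 106 and 85.3 CPM in KO, which overlapped (log2 fold change 0.13, SE 0.16).

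Per kilobase of exon, the level of an isoform can be set against that of its partner in the same lesion. Cox6a2 stood at 1.503 and 1.20 times the level of Cox6a1 in WT replicates 1 and 3, at 0.00711 times in WT replicate 2 and at 0.00138 to 0.00261 times in the KO lesions. Cox8b stood at 1.53 and 1.40 times the level of Cox8a in WT replicates 1 and 3, at 0.232 times in WT replicate 2 and at 0.00226 to 0.0215 times in KO. Cox7a1 stood at 0.505 and 0.583 times Cox7a2 in WT replicates 1 and 3, at 0.0659 times in WT replicate 2 and at 0.0165 to 0.0207 times in KO. In WT replicates 1 and 3, transcripts of the muscle forms thus matched or exceeded those of the partner for Cox6a and Cox8, and stayed below for Cox7a.

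**Figure D1:**
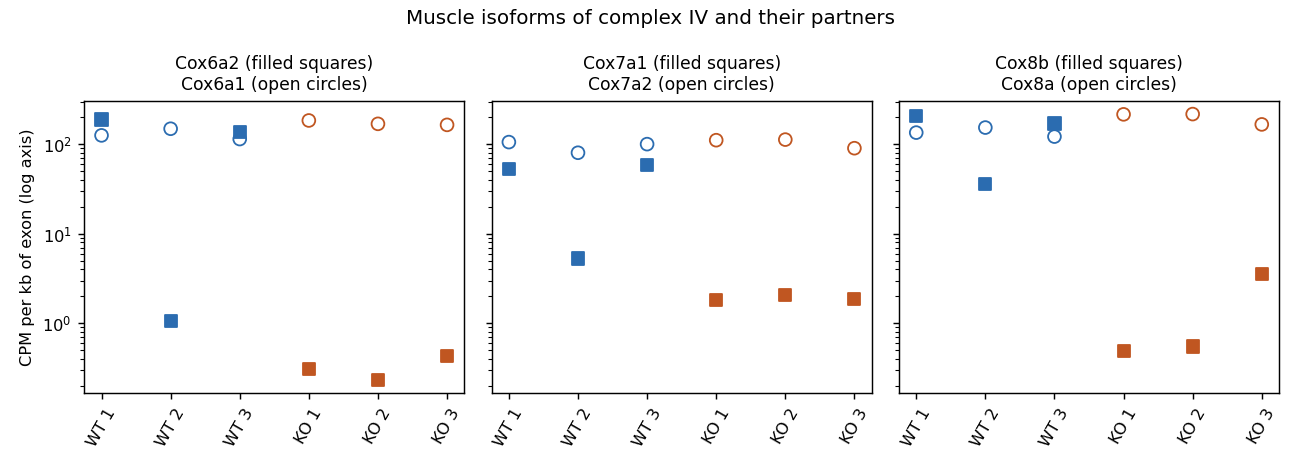
Levels in CPM per kilobase of exon (log axis) of the muscle isoforms (filled squares) and their widely expressed partners (open circles) in each WT (blue) and KO (orange) lesion. The isoforms reached 53.4 to 207 CPM per kilobase in WT replicates 1 and 3 and 0.234 to 3.59 in KO lesions, whereas the partners stayed between 80.4 and 217 in all 6 lesions.

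The other isoforms were low and did not separate the groups. Ndufa4l2, a form of Ndufa4 that is induced when oxygen is scarce, had 10.7, 3.29 and 3.67 CPM in WT against 3.26, 1.63 and 5.79 CPM in KO, with WT replicate 1 the highest and the other lesions mixed (log2 fold change -0.73, SE 0.65). Cox4i2, the oxygen-regulated form of Cox4i1, had 0.641 to 0.900 CPM in WT against 0.517 to 0.833 CPM in KO. Per kilobase, Cox4i2 reached at most 0.00709 times the level of Cox4i1. Cox6b2, known from testis, had 2.05 to 2.99 CPM in WT against 2.10 to 2.46 CPM in KO. Cox7b2 had 2 counts in KO replicate 2 and none elsewhere, and Cox8c had 0 counts in every lesion. A count of 0 allows a level of up to 0.0524 to 0.0661 CPM (3 counts of a library's total, counting error only).

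Over all members, 101 passed the filter on low counts: 12 of 13 mitochondrial mRNAs, all 76 widely expressed nuclear subunits, the 3 muscle and 2 hypoxia-linked isoforms, Cox6b2, and 7 of the 12 pseudogenes or non-coding genes. At an unadjusted p under 0.05, 4 members were lower in KO lesions (Cox6a2, Cox7a1, Cox8b and Uqcrq), where 8.16% of all genes tested were, and 2 were higher (Cox6a1 and Cox8a), where 6.55% of all genes were. The shares of members were below these backgrounds. No member passed an adjusted p of 0.05 in edgeR's quasi-likelihood test, where 1 of all genes did (0.0055%), and of the members DESeq2 passed the 3 muscle isoforms alone, where 6.26% of all genes passed. Every WT lesion was above every KO lesion in 4 of the 101 members tested, the muscle isoforms and Ndufs7, against 8.74% of all genes tested. The reverse held for Cox6a1 and Cox8a, against 10.7% of all genes.

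Of the 76 widely expressed nuclear subunits, 60 had a log2 fold change below 0 and 16 above, with a median of -0.18 against 0.01 over all genes tested. Under upper quartile scaling, which moved the median of all genes to 0.11, these numbers were 49 and 27. The main pattern lay within the WT group. Of the 76 widely expressed nuclear subunits, 61 (80.3%) had their highest levels of all 6 lesions in WT replicates 1 and 3, which 10.8% of all genes had, and 62 (81.6%) had their lowest in WT replicate 2, which 25.3% of all genes had. In 50 of them (65.8%, against 4.16% of all genes), all 3 KO lesions lay between WT replicate 2 and the other WT lesions. The SD between lesions was larger in WT than in KO for 69 of the 76 (90.8%, against 50.2% of all genes). Set against the mean of the KO lesions, the median log2 difference was 0.40, -0.31 and 0.38 in WT replicates 1, 2 and 3. Summed over the nuclear subunits other than the muscle isoforms, the level was 10653, 6659 and 10499 CPM in WT replicates 1, 2 and 3 against 8885, 9015 and 7660 CPM in the KO replicates in the same order. The group means of 9270 ± 2263 CPM in WT (SD, n = 3) against 8520 ± 748 CPM in KO (SD, n = 3) did not differ beyond the spread (exact two-sided permutation test, p = 0.6, smallest possible 0.1).

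**Figure D2:**
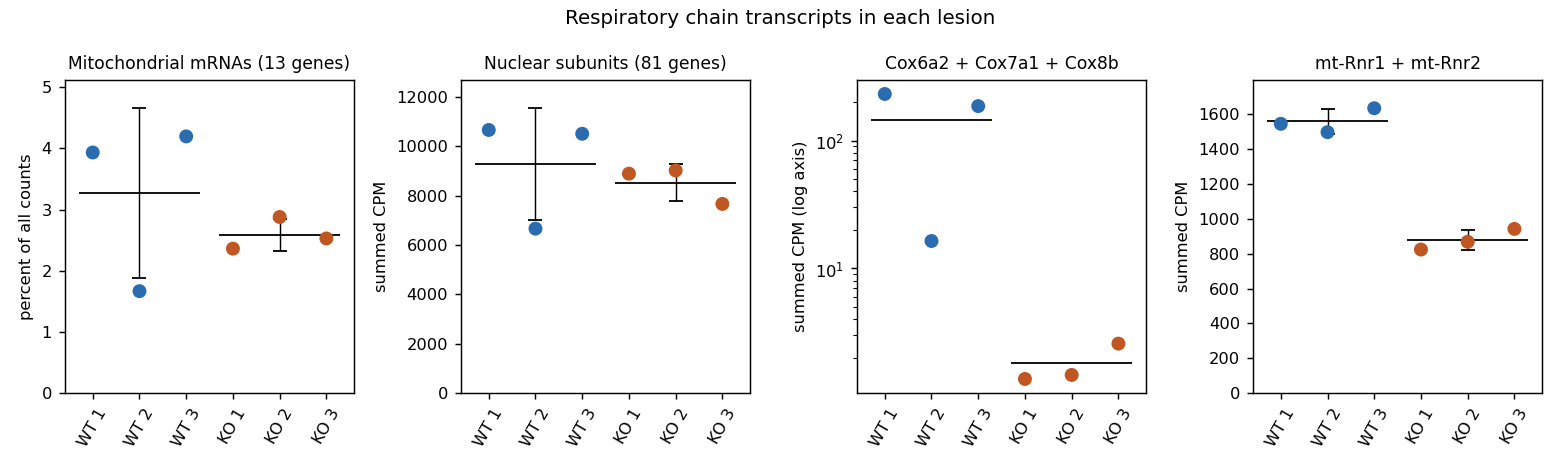
Summed respiratory chain transcripts in each lesion, with WT in blue, KO in orange, lines at group means and bars of 1 SD (n = 3), the bars left out in the panel with a log axis. WT replicates 1 and 3 were above and WT replicate 2 was below all KO lesions in the mitochondrial mRNA share and in the nuclear sum, whereas the muscle isoforms and the mitochondrial rRNAs did not overlap between groups. Of all single genes tested, 8.74% had every WT lesion above every KO lesion.

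In complex I, the entry of electrons from NADH, 27 of 35 nuclear subunits had a log2 fold change below 0, with a median of -0.28. Ndufs7, a core iron-sulfur subunit, was chosen for mention after its values were seen and had 55.3, 30.3 and 42.5 CPM in WT against 29.8, 26.8 and 29.9 CPM in KO (log2 fold change -0.57, SE 0.23, unadjusted p = 0.0511). WT replicate 2 lay close to the KO lesions in this gene. Ndufa1 and Ndufa2, accessory subunits with the highest levels per kilobase in the complex, had log2 fold changes of -0.03 (SE 0.19) and -0.28 (SE 0.20). Ndufa1 had 68.5, 44.7 and 61.1 CPM in WT against 54.2, 63.4 and 52.9 CPM in KO. Ndufa2 had 77.0, 49.0 and 63.8 CPM in WT against 50.3, 47.8 and 58.7 CPM in KO. Both overlapped between the groups, and WT replicate 2 was the lowest lesion for Ndufa1. Ndufa11, a membrane arm subunit also chosen after its values were seen, went the other way, with 72.1, 34.2 and 61.0 CPM in WT against 120, 101 and 58.0 CPM in KO (log2 fold change 0.74, SE 0.37, adjusted p = 0.38 by edgeR with Benjamini-Hochberg correction). Ndufb1-ps, listed as non-coding in the annotation, had 60.6 to 84.2 CPM, far above the other 11 pseudogenes or non-coding genes.

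In complex II, which feeds electrons from succinate, the median over the 4 subunits was -0.07. Sdha, the flavoprotein that oxidises succinate, had 362, 270 and 407 CPM in WT against 349, 342 and 308 CPM in KO (log2 fold change -0.06, SE 0.19). Sdhd, a membrane anchor, had 132, 108 and 136 CPM in WT against 126, 131 and 97.8 CPM in KO (log2 fold change -0.08, SE 0.17). The KO values of Sdha lay between those of WT replicate 2 and the other WT lesions, and the lowest value of Sdhd was in KO replicate 3.

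All 8 subunits of complex III, which passes electrons to cytochrome c, had a log2 fold change below 0, with a median of -0.28. Uqcrq, a small subunit next to cytochrome b (ENSMUSG00000044894.15, chromosome 11), had 104, 59.6 and 84.8 CPM in WT against 47.8, 43.1 and 62.5 CPM in KO. Only WT replicate 2 and KO replicate 3 overlapped. Its log2 fold change of -0.70 (SE 0.25, unadjusted p = 0.0319) was the lowest among the 76 subunits, with an adjusted p of 0.328 by edgeR with Benjamini-Hochberg correction. It ran from -0.88 to -0.50 with each lesion left out in turn and was -0.24 without WT replicates 1 and 3 (unadjusted p = 0.46 by edgeR). Uqcrh, the hinge subunit, had 188, 129 and 185 CPM in WT against 162, 182 and 141 CPM in KO (log2 fold change -0.05, SE 0.20). Uqcr10, another small subunit, had 91.6, 59.97 and 78.4 CPM in WT against 67.1, 61.0 and 63.9 CPM in KO (log2 fold change -0.26, SE 0.18). In both, all KO lesions lay between WT replicate 2 and the other WT lesions.

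Complex IV, which reduces oxygen, had the largest share of subunits that departed from this order. Of its 12 widely expressed nuclear subunits, 5 had a log2 fold change below 0 and 7 above, with a median of 0.08, and 6 had their highest levels in WT replicates 1 and 3. Besides Cox6a1 and Cox8a, those with a KO lesion at the top were Cox4i1, Cox7a2, Cox7a2l and Ndufa4. Cox4i1, the largest nuclear subunit of the enzyme, had 338, 250 and 318 CPM in WT against 300, 419 and 297 CPM in KO. Ndufa4 had 188, 106 and 183 CPM in WT against 193, 192 and 143 CPM in KO. Both were lowest in WT replicate 2 and overlapped between the groups, with log2 fold changes of 0.17 (SE 0.21) and 0.15 (SE 0.26). Cox6b1, which caps the enzyme on the intermembrane side, had 185, 126 and 179 CPM in WT against 177, 167 and 156 CPM in KO (log2 fold change 0.03, SE 0.18). Cox7b, a small membrane subunit, had 168, 97.9 and 161 CPM in WT against 125, 137 and 104 CPM in KO (log2 fold change -0.23, SE 0.24). These last genes followed the pattern of most nuclear subunits.

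Complex V, which makes ATP, followed the pattern most closely. All 17 subunits had their highest levels in WT replicates 1 and 3, and in 16 of them WT replicate 2 was the lowest lesion. The log2 fold changes ran from -0.45 to 0.03, with a median of -0.17. Atp5b, the catalytic beta subunit, had 1025, 647 and 1045 CPM in WT against 899, 892 and 764 CPM in KO (log2 fold change -0.09, SE 0.24). Atp5a1, its alpha partner, had 885, 509 and 870 CPM in WT against 725, 711 and 595 CPM in KO (log2 fold change -0.16, SE 0.26). Both had the KO lesions between WT replicate 2 and the other WT lesions.

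**Figure D3:**
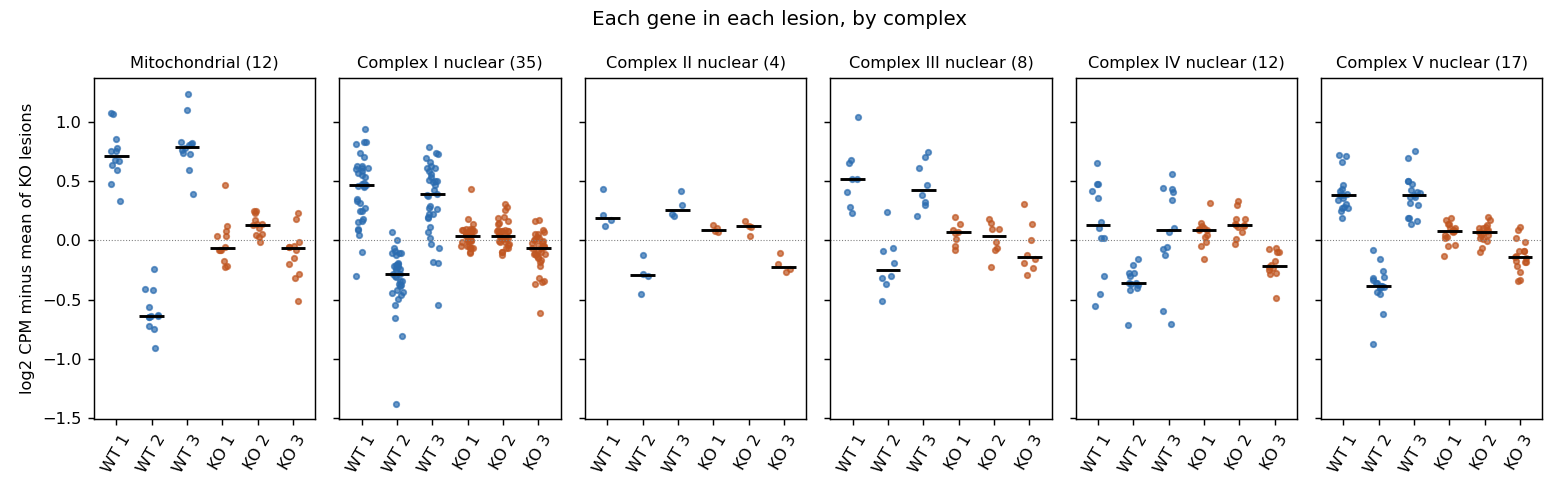
Difference of log2 CPM from the mean of the KO lesions for each gene (points) in each lesion, with the median as a line, for 12 mitochondrial mRNAs and the 76 widely expressed nuclear subunits by complex. Medians were 0.71, -0.64 and 0.79 for mitochondrial mRNAs in WT replicates 1, 2 and 3, and complex IV showed the widest mix of directions in WT replicates 1 and 3.

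The mitochondrial mRNAs showed the same order of lesions with a wider spread. Together they made up 3.93%, 1.67% and 4.196% of all counts in WT replicates 1, 2 and 3 against 2.36%, 2.88% and 2.53% in KO replicates 1, 2 and 3. Counting error was small beside these differences, with 95% Wilson intervals reaching at most 0.0056 percentage points to either side. The group means of 3.27% ± 1.39 in WT (SD, n = 3) against 2.59% ± 0.264 in KO (SD, n = 3) did not differ beyond the spread (exact two-sided permutation test, p = 0.4, smallest possible 0.1). All 12 mRNAs tested were highest in WT replicates 1 and 3 (10.8% of all genes), and 11 were lowest in WT replicate 2 (25.3% of all genes). Their log2 fold changes ran from -0.78 for mt-Nd2 to -0.14 for mt-Co2, with a median of -0.42, and their adjusted p-values by edgeR with Benjamini-Hochberg correction were 0.425 or more.

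Of the complex IV core, mt-Co1, which holds the oxygen-reducing centre, had 16004, 7551 and 17524 CPM in WT against 9486, 10802 and 9946 CPM in KO (log2 fold change -0.44, SE 0.39). Cytochrome b of complex III, mt-Cytb, had 8080, 3138 and 8818 CPM in WT against 5324, 5830 and 4510 CPM in KO (log2 fold change -0.36, SE 0.43). Of the complex I subunits, mt-Nd1 had 5310, 2015 and 5544 CPM in WT against 2970, 3455 and 3030 CPM in KO (log2 fold change -0.45, SE 0.42). In these genes WT replicates 1 and 3 were above and WT replicate 2 was below all KO lesions. The same held for mt-Nd2, mt-Nd4 and mt-Nd5, with log2 fold changes of -0.78 (SE 0.45), -0.45 (SE 0.41) and -0.38 (SE 0.44). For mt-Nd2 the values were 3867, 1380 and 4342 CPM in WT against 1582, 1898 and 2092 CPM in KO. The exception to the order was mt-Nd6, the mRNA encoded on the opposite strand to the others, with 38.5, 18.01 and 36.5 CPM in WT against 29.4, 22.1 and 14.9 CPM in KO, so that KO replicate 3 was its lowest lesion.

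The make-up of the mitochondrial mRNA pool varied little. Of all mitochondrial mRNA counts, mt-Co1 held 38.7% to 41.1% in 5 lesions and 44.4% in WT replicate 2, mt-Cytb 18.4% to 22.5%, mt-Nd1 11.8% to 12.8% and mt-Nd4 6.83% to 7.48% over all 6. The share of mt-Nd2 was 6.67% and 6.92% in KO replicates 1 and 2 and 8.11% to 9.80% in the other lesions, KO replicate 3 included. The 6 abundant mRNAs (mt-Co1, mt-Cytb, mt-Nd1, mt-Nd2, mt-Nd4 and mt-Nd5) held 99.7% to 99.8% of these counts, and the other 7 held 0.196% to 0.289%.

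The low values of 5 of these 7 go with a property of their sequences. Nuclear DNA carries copies of mitochondrial genes, and mt-Atp6, mt-Co2, mt-Co3, mt-Nd3 and mt-Nd4l had an exact match in another annotated GENCODE M21 transcript for 98.0% to 100% of their windows of 50 bases. The closest copies lie on chromosome 1: mt-Co2 was identical to Gm28661 over 681 of 681 aligned bases, mt-Atp6 to Gm10925 over 678 of 678, mt-Co3 to Gm28437 over 783 of 783 and mt-Nd4l to Gm10222 over 294 of 294. For mt-Nd3, 344 of 345 aligned bases matched Gm28438, and the sole difference lies in the first 33 bases, printed here from the GENCODE M21 transcripts, 5′ to 3′, with the differing base in capitals to show how little tells the copies apart.
mt-Nd3: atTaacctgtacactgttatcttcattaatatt
Gm28438: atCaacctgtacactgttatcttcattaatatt
Within the aligned bases, a read without that base has the letters of both genes. The 5 mRNAs had 6.11 to 19.1 CPM per kilobase, against 1555 to 7693 for the 6 abundant ones, of which mt-Cytb and mt-Nd1 had no such window, mt-Nd5 and mt-Nd2 had 7.6% and 8.2%, mt-Co1 51.1% and mt-Nd4 62.2%. The copies were themselves counted, with 289 to 719 counts for mt-Atp6 and 442 to 1213 for Gm10925. How reads with several matches were counted is not given in the sources used here, so the levels of these 5 mRNAs are uncertain, and the part of the copies in them was not tested. The other low mRNAs, mt-Nd6 at 51.2 CPM per kilobase and mt-Atp8 with 3 to 7 counts a lesion, had no window with an exact copy. mt-Atp8 overlaps mt-Atp6 and did not pass the filter on low counts.

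**Figure D4:**
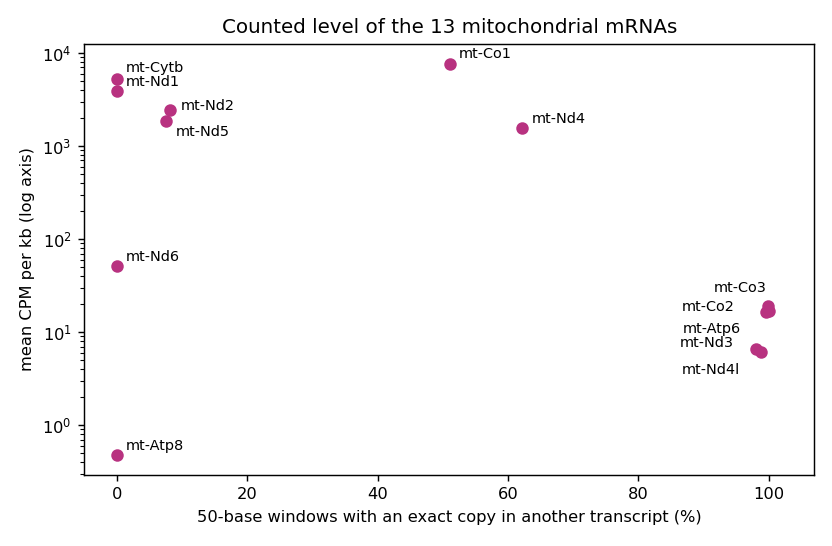
Mean level over the 6 lesions in CPM per kilobase (log axis) of each of the 13 mitochondrial mRNAs against the percent of its 50-base windows found exactly in another annotated transcript. The 5 mRNAs at 98.0% or more lie at 6.11 to 19.1 CPM per kilobase, whereas mt-Nd6 and mt-Atp8 are low at 0%.

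The mitochondrial ribosomal RNAs, encoded on the same genome but outside the symbol rule, did not follow the mRNAs. mt-Rnr1, of the small ribosomal subunit, had 597, 499.7 and 632 CPM in WT against 361, 373 and 379.8 CPM in KO (log2 fold change -0.64, SE 0.16, unadjusted p = 0.0068). mt-Rnr2, of the large subunit, had 947, 997 and 1001 CPM in WT against 463, 495 and 562 CPM in KO (log2 fold change -0.95, SE 0.16, unadjusted p = 0.00103). Every WT lesion, WT replicate 2 included, was above every KO lesion in both, which held for 8.74% of all genes tested. At an unadjusted p under 0.05 by edgeR, 8.16% of all genes were lower. The adjusted p of both rRNAs was 0.321 by edgeR with Benjamini-Hochberg correction. With each lesion left out in turn, the fold changes ran from -0.73 to -0.59 and from -1.03 to -0.89. Libraries were made with an mRNA selection kit, whose part in the rRNA levels was not tested.

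The fold changes of most subunits depended on which WT lesions were in the comparison. Without WT replicate 2, 39 of the 76 nuclear subunits were lower in KO at an unadjusted p under 0.05 (9.64% of all genes) and 2 were higher (4.21% of all genes), with a median log2 fold change of -0.39. The lower ones were 22 of 35 in complex I, 1 of 4 in complex II, 5 of 8 in complex III, 4 of 12 in complex IV and 7 of 17 in complex V. Of the mitochondrial mRNAs, 10 of 12 were lower, with a median of -0.75. At an adjusted p under 0.05 from edgeR's quasi-likelihood test (2.1% of all genes), the muscle isoforms and Atp5k, a small membrane subunit of ATP synthase, were lower. Atp5k, with 103, 52.5 and 101.7 CPM in WT against 61.2, 63.8 and 63.5 CPM in KO, had a log2 fold change of -0.70 and an adjusted p of 0.0433 in that fit. The remaining WT replicates 1 and 3 are those with skeletal muscle transcripts, and WT replicate 3 has the acinar transcripts as well, so the genotype and the muscle or acinar content of the lesions cannot be told apart in this comparison.

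Without WT replicates 1 and 3, WT replicate 2 was the sole control and was assumed to vary as the KO lesions do. The median log2 fold change was then 0.30 over the nuclear subunits, of which 73 were above 0 and 3 below, and 0.63 over the mitochondrial mRNAs, all of which were above 0. By complex, the nuclear medians were 0.23 to 0.37. At an unadjusted p under 0.05, 6 nuclear subunits were higher, where 4.28% of all genes were, and none was lower, where 10.1% of all genes were. The sums of neutrophil and macrophage markers were highest in this lesion. All 8 smooth muscle markers were lowest in it (25.3% of all genes), with a sum of 895 CPM against 1933 to 4582 CPM elsewhere. With all 6 lesions, 5 of these 8 were higher in KO at an unadjusted p under 0.05 by edgeR (6.55% of all genes). The part of these cell types in the low values of WT replicate 2 was not tested. Cox8a, Cox6a1, Cox7a1 and Cox8b had the same sign in all settings tried, as did Cox6a2 in all but the filter of 10 counts in every lesion, which it did not pass. Cox6a2 and Cox8b passed the main filter only through the WT lesions, so their constant sign was bound to appear and adds no support.

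**Figure D5:**
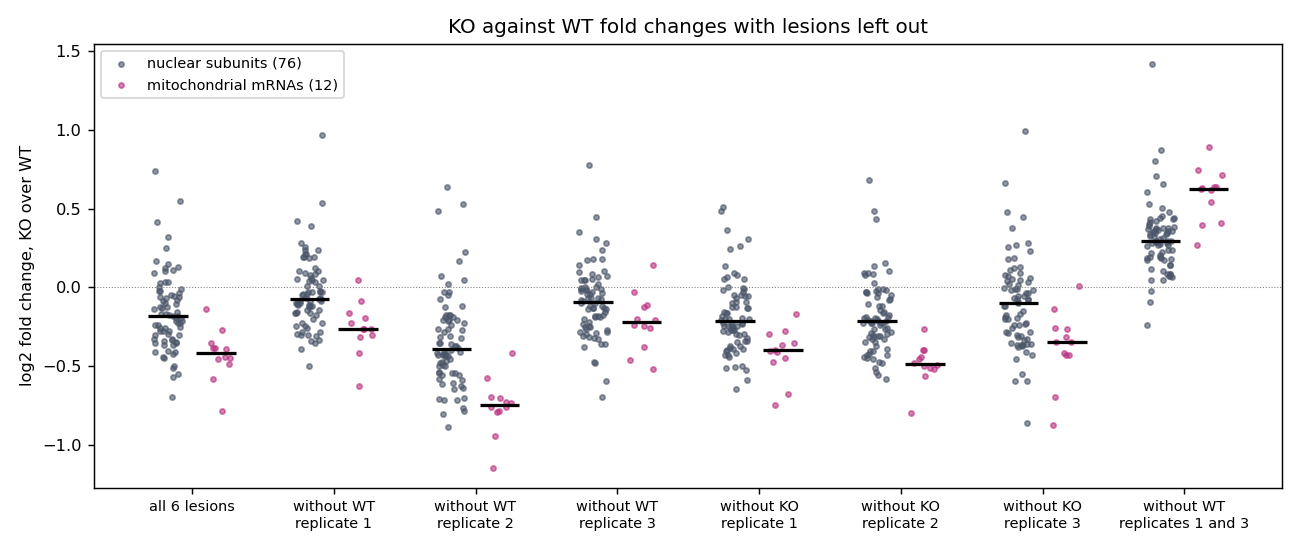
Log2 fold changes, KO over WT, of the 76 widely expressed nuclear subunits (grey) and 12 mitochondrial mRNAs (magenta) with all 6 lesions and with the named lesions left out, with medians as black lines. The nuclear median moved from -0.39 without WT replicate 2 to 0.30 without WT replicates 1 and 3.

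Genes that build, feed or regulate the chain were read from lists beside the members. Of 48 tested assembly factors, 2 were lower at an unadjusted p under 0.05 (8.16% of all genes), Cox17, the copper chaperone of complex IV, and Coa5, and the median of the list was -0.01. Cox17 had 31.0, 35.6 and 29.9 CPM in WT against 25.4, 21.8 and 22.8 CPM in KO (log2 fold change -0.47, SE 0.14, adjusted p = 0.321 by edgeR with Benjamini-Hochberg correction), with no overlap and with WT replicate 2 the highest lesion. Coa5, an assembly factor of the same enzyme, had 179, 147 and 187 CPM in WT against 118, 116 and 145 CPM in KO (log2 fold change -0.44, SE 0.16). Acad9, which assembles complex I, had 24.5 to 27.0 CPM in WT against 28.6 to 43.0 CPM in KO (log2 fold change 0.41, SE 0.19, unadjusted p = 0.0736).

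Of 19 electron carriers, coenzyme Q genes and other subunits, 4 were lower (8.16% of all genes) and 1 higher (6.55% of all genes) at an unadjusted p under 0.05. Coq8a, a kinase-like protein of coenzyme Q synthesis, had 268, 23.7 and 175 CPM in WT against 9.61, 12.2 and 32.1 CPM in KO (log2 fold change -3.12, SE 0.95). Coq10a had 59.95, 9.18 and 48.7 CPM in WT against 7.81 to 10.8 CPM in KO (log2 fold change -2.11, SE 0.66). Both were high in WT replicates 1 and 3 alone, like the muscle isoforms. Coq10b, its paralog, had 33.2, 40.6 and 33.4 CPM in WT against 24.3, 23.8 and 28.9 CPM in KO, with no overlap (log2 fold change -0.48, SE 0.15).

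Of 13 enzymes of the tricarboxylic acid cycle, 12 had a log2 fold change below 0, with a median of -0.32. Of all 18177 genes tested, 8829 were below 0. At an unadjusted p under 0.05, 1 enzyme was lower (8.16% of all genes), Idh3g, a subunit of isocitrate dehydrogenase. Idh3g had 106, 84.3 and 104 CPM in WT against 76.6, 75.9 and 82.5 CPM in KO (log2 fold change -0.32, SE 0.13, unadjusted p = 0.0491 by edgeR). Dlst, of the oxoglutarate dehydrogenase complex, had 118 to 148 CPM in WT against 101 to 117 CPM in KO (log2 fold change -0.29, SE 0.14). WT replicates 1 and 3 were highest in 11 of the 13 (10.8% of all genes), and WT replicate 2 was lowest in 7 (25.3% of all genes).

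Of 20 regulators, 1 was lower at an unadjusted p under 0.05 (8.16% of all genes), the coactivator Ppargc1b. Ppargc1b had 5.51, 3.22 and 3.99 CPM in WT against 2.33, 2.62 and 1.38 CPM in KO (log2 fold change -1.01, SE 0.36, adjusted p = 0.328 by edgeR with Benjamini-Hochberg correction). Ppara, a nuclear receptor of fatty acid use, had 2.29 to 4.21 CPM in WT against 0.982 to 2.40 CPM in KO (log2 fold change -0.80, SE 0.44). Esrrg, an orphan nuclear receptor, had 14.2, 0.225 and 8.29 CPM in WT against 0.526, 3.10 and 0.125 CPM in KO, again high in WT replicates 1 and 3 (log2 fold change -2.60, SE 1.59). None of 12 genes of the outer membrane and protein import passed an unadjusted p of 0.05, where 8.16% of all genes were lower and 6.55% higher. Vdac1, the main channel of the outer membrane, had 453, 170 and 493 CPM in WT against 259, 257 and 217 CPM in KO (log2 fold change -0.61, SE 0.40). Timm23, of the import channel, had 34.3 to 58.5 CPM in WT against 37.1 to 38.0 CPM in KO, and Tomm20, an import receptor, had 63.9 to 72.4 CPM in WT against 74.9 to 90.2 CPM in KO (log2 fold changes -0.36, SE 0.21, and 0.21, SE 0.13).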

How the data were processed

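RNA of 3 WT and 3 KO lesions was sequenced with a stranded mRNA kit (Illumina TruSeq). After trimming, the authors aligned the reads to GRCm38 per the study's methods (the submitters' processing notes name GRCm39, Trimmomatic, featureCounts and DESeq2) and they deposited raw counts of reads per gene, which were used as they stand. The strand setting and the treatment of reads with several matches are not given in the sources used here. Of genes with 1 to 100 counts, 87.2% to 88.6% had an even count, as they would be with both mates of a pair counted, which was not tested. Intervals from counts cover counting error only and would then be too narrow. The study's methods give 3 donors a group without tying lesions to donors, and p-values measure the spread between these lesions.

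Symbols, exon lengths and chromosomes came from GENCODE M21, which held 51948 of the 56884 identifiers without their version and 35 with it. Identifiers without a symbol held 3.04% to 3.56% of the counts. Copies of mitochondrial mRNAs were searched in GENCODE M21 transcripts with blastn 2.17.0 (E-value limit 1e-10) and exact windows of 50 bases. Promoters came from RefSeq GRCm38.p6.

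Genes were kept by filterByExpr (18177 left), scaled by TMM (factors 0.962 to 1.05) and tested with edgeR 4.0.16 (quasi-likelihood, genotype as the sole term, R 4.3.3), with Benjamini-Hochberg adjustment over all of them. SE is the log2 fold change divided by the root of the F statistic. The biological coefficient of variation (common) was 44.2%. The steps were tested on simulated counts. Summed levels were compared by exact permutation tests over lesions (Python 3.11.15, SciPy 1.17.1). Alternatives were other scalings (DESeq2 size factors, upper quartile, TMM without mitochondrial genes), other filters (1 count, 10 counts in every lesion), DESeq2 1.42.0, limma 3.58.1 voom with quality weights, a replicate block, each lesion left out, and WT replicates 1 and 3 left out. The members, isoform classes and lists were chosen with earlier results of these data known. Named genes were all mitochondrial mRNAs, the isoforms with their partners, up to 6 nuclear subunits per direction with an unadjusted p under 0.05, the 2 with the highest level per kilobase in each complex, and 3 per list with the smallest p, of which 1 is not reported here.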

Additional observations from a re-analysis of the deposited data

How the results depend on the processing

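With 3 lesions a group, differences smaller than the spread between WT lesions could not be detected. The number of members lower in KO at an unadjusted p under 0.05 was 4, and 37 with limma voom and quality weights (15.9% of all genes), 2 without WT replicates 1 and 3, and 3 to 53 with each lesion left out, the highest without WT replicate 2. The number higher was 2, and 1 with the replicate block, 6 without WT replicates 1 and 3, and 0 to 3 with each lesion left out (0 without WT replicate 3, KO replicate 1 or KO replicate 2, and 1 without WT replicate 1). The number at an adjusted p under 0.05 was 0, and 3 with DESeq2's Wald test and 0 to 4 with each lesion left out, 4 without WT replicate 2. The block gave 4 lower, 1 higher and 0 at the adjusted threshold. Deviations from the group mean correlated at 0.06, -0.16 and -0.23 for lesions with the same number. For lesions with different numbers they correlated at -0.17 to 0.25. With 3 lesions a group these values cannot tell whether the lesions are paired. Without WT replicates 1 and 3, KO minus WT was 0.923 percentage points for the mitochondrial mRNA share, 1781 CPM for the nuclear sum and -15.0 CPM for the muscle isoforms. With each lesion left out these ran from -1.48 to -0.21 percentage points, from -2046 to -64.6 CPM and from -206.5 to -100.3 CPM.

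Without WT replicates 1 and 3 the log2 fold changes reversed to 0.63 (mt-Nd1), 0.41 (mt-Nd2), 0.40 (mt-Co1), 0.63 (mt-Co2), 0.64 (mt-Atp6), 0.54 (mt-Co3), 0.89 (mt-Nd3), 0.62 (mt-Nd4), 0.74 (mt-Nd5), 0.27 (mt-Nd6), 0.71 (mt-Cytb), 0.64 (mt-Nd4l), 0.10 (Ndufa4l2), 0.29 (Cox7b), 0.32 (Ndufa1), 0.07 (Ndufa2), 0.11 (Sdhd), 0.28 (Sdha), 0.31 (Uqcrh), 0.07 (Uqcr10), 0.39 (Atp5a1), 0.37 (Atp5b), 2.43 (Esrrg), 0.11 (Timm23) and 0.50 (Vdac1). The cause was not tested. Upper quartile scaling moved the median of all genes to 0.11 and reversed Ndufa1 (0.06), Sdhd (0.02), Sdha (0.04), Uqcrh (0.05) and Atp5b (0.01), and left 49 nuclear subunits below 0 and 27 above, against 60 and 16. Voom reversed Cox6b1 (-0.05). With each lesion left out, signs changed within ranges of -0.41 to 0.05 (mt-Co2), -0.76 to 0.14 (mt-Nd3), -1.27 to 0.03 (Ndufa4l2), -0.01 to 0.25 (Cox4i1), -0.07 to 0.28 (Ndufa4), -0.13 to 0.13 (Cox6b1), -0.19 to 0.10 (Ndufa1), -0.18 to 0.04 (Sdhd), -0.21 to 0.05 (Sdha), -0.20 to 0.04 (Uqcrh) and -0.28 to 0.01 (Atp5b).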
